A study of Homo sapiens with 27 samples.

Results

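The NET47 line was compared directly with the NET29 line. Each is a stable line of HT1080 cells, a human fibrosarcoma line used by the study as a fibroblast, and each expresses a different nuclear envelope transmembrane protein (NET) at full length, fused to green fluorescent protein (GFP). The comparison took the 3 arrays whose titles name NET47-GFP overexpression and the 4 arrays whose titles name NET29-GFP overexpression, which are 7 of the 27 arrays of the series, and it used all 48803 probes. Both lines had been transfected and then selected with Geneticin, so that GFP fusion, transfection and selection were common to them. A further 4 arrays came from untreated HT1080 cells, which had neither the fusion nor the selection and are given beside the lines as a level only. The sources used here do not state how many independent lines or clones stood behind each protein, and the study describes separate passages of a line. The p-values therefore measure the spread between arrays, and an effect of the protein and a difference between 2 cell lines cannot be told apart.

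NET47 is the product of TM7SF2, a sterol reductase of the late steps of cholesterol synthesis that sits in the endoplasmic reticulum and the inner nuclear membrane and is made preferentially in liver. NET29 is the product of TMEM120A, a membrane protein of the nuclear envelope made preferentially in fat and linked to adipocyte differentiation. Proteins of this class hold chromosomes near the nuclear periphery, where genes are often less active, and the study followed them because they move particular chromosomes. Both proteins are known to move chromosome 5, and NET29 also chromosome 13. The direct comparison addresses which genes separate a line carrying a liver NET from a line carrying a fat NET when the host cell is the same.

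The 7 arrays had median raw intensities between 46.9 and 54.1. All values below are log2 intensities after background correction and quantile normalisation, and a difference is the NET47 mean minus the NET29 mean with its standard error (SE). A background level was set on each array by 620 probes of gene families that are mostly silent in fibroblasts, and lay at a log2 of 6.17 to 6.20 on these 7 arrays. The probes were taken by gene symbol, and they include OR51B4, which was well above that level here. Replicate 3 of the NET47 line stood apart from the other 2, with a correlation of 0.976 and 0.973 to them, against 0.994 between them. These correlations were taken over the 9226 genes above background on all 7 arrays. On the NET29 side replicates 1 and 4 were the most alike pair (r = 0.996). The 94 named genes past the threshold were checked with each array left out, and lost calls are given with the genes reported. Other genes given with the lists or for chromosome 13 were not checked one by one. List counts with single arrays left out are given for some lists only. The mesenchymal marker VIM was near the top of the scale, at 14.05 in the NET47 line and 14.07 in the NET29 line, while the epithelial markers EPCAM and CDH1, the endothelial marker CDH5, the leukocyte marker PTPRC, albumin (ALB), ADIPOQ of adipocytes and MYOD1 of muscle were not above background on any of the 7 arrays. Other markers of such cell types were above background, among them KRT8, PECAM1 and CD14 on at least 3 arrays of each line. KRT8 was higher in the NET47 line, and is given below with the sums of the epithelial markers. These are bulk cultures, in which fewer cells making a transcript and less of it per cell cannot be told apart.

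TM7SF2, the gene of the protein expressed in the NET47 line, had the largest difference on the array. Its log2 intensity was 12.63, 12.59 and 12.39 in the NET47 line, against 6.61, 6.16, 6.40 and 6.56 in the NET29 line and 6.55 ± 0.08 (SD, n = 4) in untreated cells. The lines were separated by 6.10 ± 0.10 (SE, adjusted p = 9.91e-23, limma), a 68.7-fold difference, and NET29 arrays lay at or just above the background level. TMEM120A, the gene expressed in the NET29 line, showed the opposite and smaller difference. It read 6.55, 6.83 and 6.96 in the NET47 line and 7.98, 8.09, 8.53 and 8.44 in the NET29 line, with untreated cells at 6.93 ± 0.27 (SD, n = 4), and was lower in the NET47 line by 1.48 on the log2 scale (SE 0.13, adjusted p = 4.88e-08). Both genes therefore matched the labels of the arrays. TMEM120B, the paralogue of TMEM120A, differed by 0.05 ± 0.09 (adjusted p = 0.971), and PLPP7, which encodes the muscle protein NET39, by 0.46 ± 0.07, below the limit of 0.5 set on the difference.

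Across 18665 genes, each represented by its brightest probe, 435 passed the threshold of an adjusted p under 0.05 and a log2 difference beyond 0.5, which is 2.33% of the genes tested. Of these 318 were higher in the NET47 line (1.7% of all genes) and 117 were lower (0.627%). The arrays of the lines did not overlap for 434 of the 435, beside 13.6% of all genes. Differences beyond 2-fold were found for 81 higher and 20 lower genes, and beyond 4-fold for 11 higher and 1 lower gene. The imbalance lay partly at the dim end: 43 of the called genes were not above background on any NET29 array, and 1 was not above it on any NET47 array. For such genes the NET29 level is only bounded from above, and a fold is given as "at least", as the mean of the bright arrays over the background level of the dim arrays. Set against untreated cells, 228 genes passed in the NET47 line (109 higher and 119 lower, 1.22% of all genes) and 626 in the NET29 line (200 higher and 426 lower, 3.35%), both from the same 4 untreated arrays. Leaving out one array at a time gave 318 to 450 called genes, the fewest without NET47 replicate 3 (227 higher and 91 lower).

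**Figure D1:**
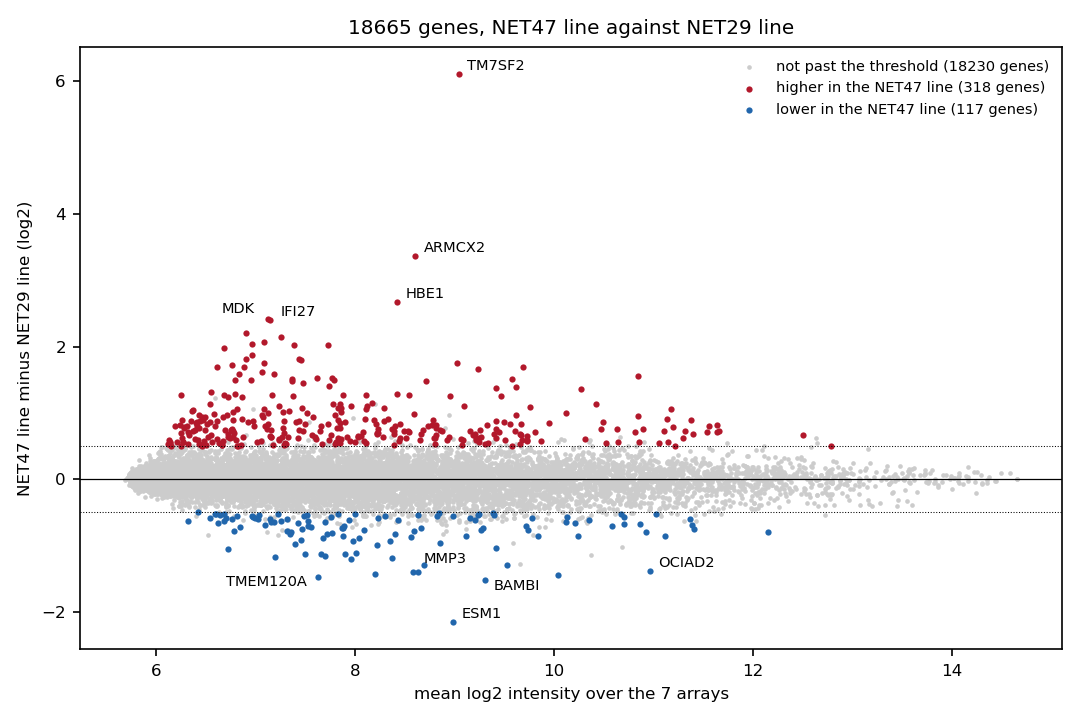
Difference between the lines (NET47 minus NET29, log2) against the mean log2 intensity over the 7 arrays, 1 point per gene, with dotted lines at 0.5 and -0.5. The 318 genes higher in the NET47 line (red) outnumber the 117 that were lower (blue), and TM7SF2 stands alone at 6.10.

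After TM7SF2, the largest rise was that of ARMCX2, an armadillo-repeat gene of the X chromosome. It read 10.64, 10.44 and 10.51 in the NET47 line and 7.09, 7.49, 6.97 and 7.12 in the NET29 line, a difference of 3.36 ± 0.10 or 10.3-fold (adjusted p = 8.4e-17). Untreated cells, at 9.99 ± 0.15 (SD, n = 4), lay close below the NET47 line and far above the NET29 line. Most of its relatives on the X chromosome did not pass. Of 15 measured genes of the ARMCX, BEX and TCEAL families, 2 were higher in the NET47 line (ARMCX2 and BEX1, 0.75 ± 0.11), none was lower (13.3% called, beside 2.33% over all genes), and the median over the 15 was -0.09. ARMCX1, for example, differed by -0.26 (adjusted p = 0.261). BEX1 was called by its brightest probe, and its other probe differed by 0.21 (adjusted p = 0.864).

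Among the remaining rises were a growth factor and genes of the extracellular matrix. MDK, which encodes the heparin-binding growth factor midkine, read 8.38, 8.43 and 8.69 in the NET47 line. In the NET29 line it was 6.11, 6.15, 6.02 and 6.09, not above background on any array, so that it was at least 4.97-fold higher in the NET47 line (adjusted p = 1.33e-11). The 5 other MDK probes were dim and none was called. THBS2, an antiangiogenic matrix glycoprotein of the thrombospondin family, was 8.12, 8.24 and 8.47 in the NET47 line and 6.21, 6.18, 6.16 and 6.25 in the NET29 line (difference 2.07 ± 0.19). Untreated cells exceeded both lines in THBS2, with 9.38 ± 0.52 (SD, n = 4). CEMIP, a hyaluronan-binding protein needed for hyaluronan breakdown, was 7.90, 8.59 and 8.97 in the NET47 line and 6.43, 6.48, 6.13 and 6.34 in the NET29 line (2.14 ± 0.43, adjusted p = 0.00475). Its NET47 arrays varied most among these genes, and without NET47 replicate 3 the difference of 1.90 had an adjusted p of 0.0546.

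Intracellular regulators and enzymes completed the rises. ASB9, a substrate adaptor of ubiquitin ligases, read 8.23, 7.81 and 8.47 in the NET47 line and 5.94, 6.05, 5.97 and 5.91 in the NET29 line, at least 3.95-fold higher. SERPINB1, an inhibitor of neutrophil serine proteases, read 7.75, 7.58 and 8.13 in the NET47 line and 5.82, 6.0, 5.88 and 5.66 in the NET29 line, at least 3.10-fold higher. CAMK1, a calcium/calmodulin-dependent kinase, read 7.84, 7.83 and 8.16 in the NET47 line and 6.04, 6.17, 6.15 and 6.16 in the NET29 line, at least 3.38-fold higher. None of ASB9, SERPINB1 and CAMK1 was above background on a NET29 array, and in untreated cells they read 7.98 ± 0.66, 7.52 ± 0.40 and 7.70 ± 0.36 (SD, n = 4), near the NET47 line. TEAD2, a transcription factor through which YAP acts, was 8.40, 8.35 and 8.90 in the NET47 line and 6.58, 6.52, 6.48 and 6.52 in the NET29 line (2.02 ± 0.13), with untreated cells between them at 7.88 ± 0.28. QPRT, which makes a precursor of NAD from quinolinate, behaved differently toward the untreated level. It read 7.94, 8.07 and 8.39 in the NET47 line and 5.79, 6.30, 6.09 and 6.21 in the NET29 line (2.03 ± 0.11), and untreated cells were at 6.35 ± 0.16, beside the NET29 line. MAGEC2, a cancer-testis antigen, was 8.01, 7.88 and 8.22 in the NET47 line and 6.08, 6.20, 6.10 and 6.27 in the NET29 line (1.87 ± 0.36), while untreated cells spread from 6.30 to 8.92.

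**Figure D2:**
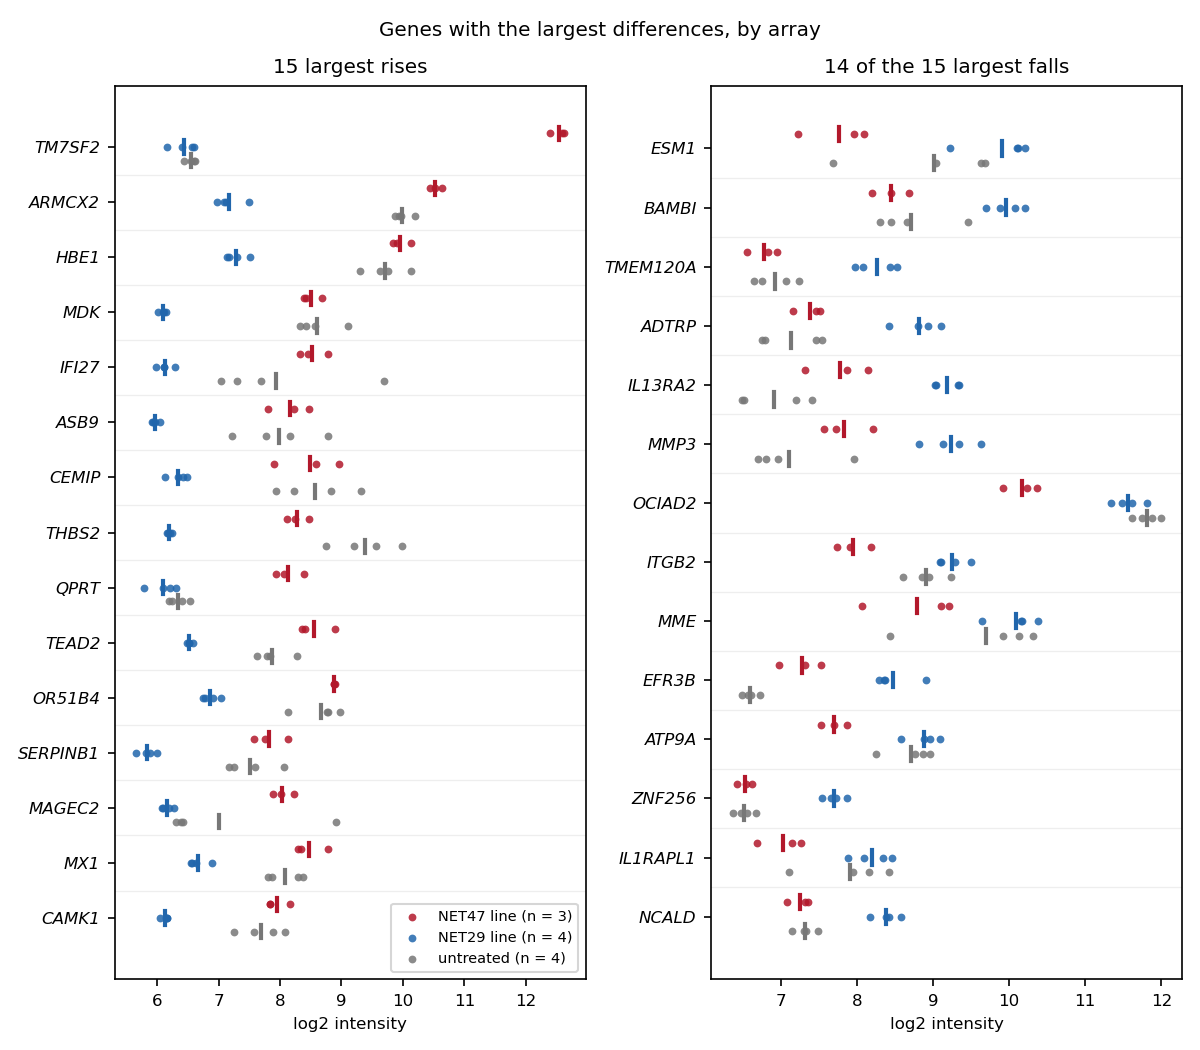
Log2 intensity on each array for the 15 genes with the largest rises and 14 of the 15 with the largest falls, with the NET47 line (red, n = 3) above the NET29 line (blue, n = 4) and untreated cells (grey, n = 4), and vertical bars are group means. The line arrays do not overlap for any of the genes shown, and the untreated arrays lie by the NET47 line for some genes and by the NET29 line for others.

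Genes lower in the NET47 line included several of the cell surface and of endothelial or inflammatory signalling. ESM1, a secreted proteoglycan of activated endothelium, had the largest fall, with 8.10, 7.96 and 7.23 in the NET47 line and 10.11, 9.22, 10.11 and 10.21 in the NET29 line. The difference was -2.15 ± 0.34 (adjusted p = 0.000345), and its second probe was also lower, at -1.22. BAMBI, a decoy receptor that blocks TGF-beta signalling, was 8.21, 8.45 and 8.68 in the NET47 line and 9.69, 10.07, 10.21 and 9.88 in the NET29 line (-1.52 ± 0.23). Untreated means of ESM1 and BAMBI lay between the lines, at 9.01 ± 0.93 and 8.72 ± 0.52 (SD, n = 4). MMP3, the protease stromelysin, was 7.57, 7.73 and 8.21 in the NET47 line and 8.82, 9.64, 9.34 and 9.13 in the NET29 line (-1.39 ± 0.28), and IL13RA2, a decoy receptor for interleukin 13, was 8.15, 7.87 and 7.32 against 9.34, 9.03, 9.04 and 9.33 (-1.41 ± 0.23). ADTRP, a regulator of tissue factor pathway inhibitor, was 7.52, 7.46 and 7.17 in the NET47 line and 8.94, 8.43, 8.80 and 9.10 in the NET29 line (-1.43 ± 0.18). In these last 3 genes the untreated mean was below both lines, at 7.11 for MMP3, 6.91 for IL13RA2 and 7.14 for ADTRP.

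A second group of falls had untreated levels near or above the NET29 line. OCIAD2, a mitochondrial and endosomal protein, read 10.24, 9.92 and 10.37 in the NET47 line and 11.61, 11.81, 11.34 and 11.49 in the NET29 line (-1.39 ± 0.12), with untreated cells at 11.81 ± 0.16 (SD, n = 4). ITGB2, the beta chain of leukocyte integrins, read 7.91, 7.75 and 8.19 in the NET47 line and 9.10, 9.50, 9.30 and 9.09 in the NET29 line (-1.30 ± 0.13), with untreated cells at 8.91 ± 0.26. ATP9A, a phospholipid flippase of endosomes, read 7.52, 7.70 and 7.87 in the NET47 line and 8.96, 9.10, 8.58 and 8.88 in the NET29 line (-1.18 ± 0.17). IL1RAPL1, a synaptic receptor protein, differed by -1.16 ± 0.21, with untreated cells at 7.91 ± 0.57. NCALD and ZNF256 instead had untreated levels at the NET47 line. NCALD, a neuronal calcium sensor, read 7.32, 7.09 and 7.35 in the NET47 line and 8.42, 8.57, 8.18 and 8.38 in the NET29 line (-1.13 ± 0.11), with untreated cells at 7.32 ± 0.14. ZNF256, a zinc finger gene, differed by -1.17 ± 0.11, with untreated cells at 6.52 ± 0.13. EFR3B, a plasma membrane scaffold of a lipid kinase, differed by -1.20 ± 0.14, with untreated cells below both lines at 6.60 ± 0.10. MME, the peptidase neprilysin, passed less firmly. It differed by -1.29 ± 0.31 (adjusted p = 0.0236) and missed the threshold without NET47 replicate 3 or without NET29 replicates 1, 3 or 4 (adjusted p 0.0605 to 0.306).

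Neighbouring genes of the beta-globin cluster on chromosome 11 were higher in the NET47 line together. HBE1, the embryonic epsilon globin, read 9.83, 9.90 and 10.13 in the NET47 line and 7.29, 7.51, 7.13 and 7.17 in the NET29 line (2.67 ± 0.16, adjusted p = 1.19e-10). OR51B4, an olfactory receptor gene next to it, read 8.88, 8.89 and 8.89 in the NET47 line and 6.77, 7.04, 6.91 and 6.75 in the NET29 line (2.02 ± 0.12). The fetal globins were dimmer and followed in direction. HBG2 read 6.90, 6.98 and 7.21 in the NET47 line and 5.92, 6.26, 6.05 and 6.13 in the NET29 line, and HBG1 read 6.79, 6.85 and 7.09 in the NET47 line and 6.03, 5.99, 6.09 and 6.07 in the NET29 line, at least 1.65-fold higher. HBG1 and HBG2 are nearly identical genes, so that their probes cannot be taken as separate measurements. These 4 neighbours formed the longest run of adjacent measured genes past the threshold in 1 direction. Untreated means were nearer to the NET47 line than to the NET29 line for all 4, with 9.71 ± 0.34 (SD, n = 4) for HBE1 and 8.66 ± 0.36 for OR51B4. The remaining erythroid genes stayed out of it: 3 of 14 globin and erythroid genes were higher (21.4%, beside 2.33% over all genes), 0 were lower, the median was 0.07, and the adult globins HBB, HBD, HBA1 and the zeta globin HBZ were not above background on any array of either line.

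Interferon-stimulated genes split. Type I interferon turns on a set of antiviral genes through a promoter element that binds the factor ISGF3. Of such genes, 3 were higher in the NET47 line than in the NET29 line and 1 was lower. IFI27, a mitochondrial protein strongly induced by interferon, was 8.32, 8.46 and 8.78 in the NET47 line and 6.11, 6.29, 5.98 and 6.11 in the NET29 line (2.40 ± 0.35, adjusted p = 0.00014). MX1, a GTPase that blocks viral replication, was 8.35, 8.30 and 8.79 in the NET47 line and 6.63, 6.90, 6.57 and 6.55 in the NET29 line (1.81 ± 0.13). IFITM1, a membrane protein that blocks viral entry, was 7.70, 7.74 and 8.26 in the NET47 line and 6.59, 6.88, 6.50 and 6.53 in the NET29 line (1.27 ± 0.21). IFI44, a cytoplasmic interferon-induced protein, went the other way, with 7.43, 7.46 and 6.62 in the NET47 line and 8.29, 7.82, 7.95 and 8.16 in the NET29 line. Its difference of -0.89 ± 0.20 (adjusted p = 0.0174) was the weakest of the 4, and missed the threshold without NET47 replicate 3 or without NET29 replicate 1 or 4 (adjusted p 0.058 to 0.257). Untreated cells varied widely in IFI27, with 7.93 ± 1.20 (SD, n = 4), and were at 8.08 ± 0.29 for MX1 and 6.96 ± 0.55 for IFITM1. Against untreated cells IFI27 and MX1 passed only in the NET29 line, which was lower (-1.81 and -1.42). IFITM1 passed only in the NET47 line, which was higher (0.94). In all, 4 of 26 measured interferon response genes passed (15.4%, beside 2.33% over all genes), and the list median was 0.19.

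The promoters of these 4 genes are shown because they differed between the lines in opposite directions although each belongs to the interferon response. The sequences are RefSeq windows of build GRCh38.p14, 250 bases before to 50 after the first listed start of each gene, and capitals mark the core of the interferon-stimulated response element, which is GAAA, then any 2 bases, then GAAA, searched on both strands (it reads TTTC, any 2 bases, TTTC where it lies on the opposite strand).
IFI27, chr14:94110486-94110785, + strand: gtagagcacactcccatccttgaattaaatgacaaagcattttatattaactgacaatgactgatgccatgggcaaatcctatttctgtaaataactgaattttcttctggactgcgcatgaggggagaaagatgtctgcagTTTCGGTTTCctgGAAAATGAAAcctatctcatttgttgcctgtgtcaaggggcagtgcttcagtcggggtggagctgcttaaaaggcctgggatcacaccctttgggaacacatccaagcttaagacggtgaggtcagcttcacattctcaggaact
MX1, chr21:41420308-41420607, + strand: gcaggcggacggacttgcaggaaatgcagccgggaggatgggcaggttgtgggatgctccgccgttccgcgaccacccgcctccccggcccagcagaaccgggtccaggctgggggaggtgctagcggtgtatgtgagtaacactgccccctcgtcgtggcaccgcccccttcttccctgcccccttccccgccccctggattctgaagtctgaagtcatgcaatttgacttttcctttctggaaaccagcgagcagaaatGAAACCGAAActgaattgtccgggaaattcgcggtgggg
IFITM1, chr11:313790-314089, + strand: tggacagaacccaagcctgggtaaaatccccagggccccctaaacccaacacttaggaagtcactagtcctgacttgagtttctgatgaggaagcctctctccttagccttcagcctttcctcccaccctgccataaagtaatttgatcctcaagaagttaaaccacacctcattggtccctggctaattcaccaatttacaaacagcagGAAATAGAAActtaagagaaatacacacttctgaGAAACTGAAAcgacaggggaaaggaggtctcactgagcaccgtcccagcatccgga
IFI44, chr1:78649539-78649838, + strand: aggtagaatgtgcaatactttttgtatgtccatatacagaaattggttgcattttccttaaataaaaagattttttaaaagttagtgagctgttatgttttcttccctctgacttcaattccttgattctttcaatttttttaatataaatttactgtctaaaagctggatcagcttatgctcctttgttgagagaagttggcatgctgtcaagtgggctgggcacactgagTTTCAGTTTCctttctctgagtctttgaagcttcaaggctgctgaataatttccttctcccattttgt
All 4 windows held the core, with 2 matches in IFI27, 2 in IFITM1, 1 in MX1 and 1 in IFI44, while 3.57% of the 35116 promoter windows of the table held at least 1. The 4 were picked from genes that interferon turns on through this element, so that matches were likely from the start. IFI44, lower in the NET47 line, held a match as did the 3 higher genes, and the part of the element in the split was not tested. MX1 has 3 listed starts, and 1 of its windows held no match.

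Other members of the interferon list moved little. OAS2, IFITM3 and ISG15 differed by 0.42, 0.42 and 0.41 without passing, and GBP1 and ISG20 by -0.24 and -0.27. Antigen processing, which interferon also raises, had 2 of 15 measured genes higher (13.3%), the immunoproteasome subunits PSMB9 (0.63 ± 0.16) and PSMB10 (0.54 ± 0.12). Neither held when NET47 replicate 3 was left out (adjusted p = 0.301 and 0.211), and each also missed without several other arrays. Among 31 chemokine, cytokine and NF-kB target genes 1 was called (3.23%), IL11, a cytokine of the interleukin 6 family. It read 8.69, 8.94 and 8.90 in the NET47 line and 7.72, 7.50, 7.42 and 7.64 in the NET29 line (1.27 ± 0.20). CXCL8 and IL1B, a neutrophil chemokine and an inflammatory cytokine, differed by -1.29 and -1.02 and did not pass (adjusted p = 0.146 and 0.0768).

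Matrix genes changed in both directions. Of 44 measured glycoproteins and proteoglycans, 7 were higher and 3 lower in the NET47 line (22.7% called, beside 2.33% over all genes), with a median of 0.01. The rises were THBS2, FBLN1, TGFBI, MATN2, CSPG4, PCOLCE and BGN. FBLN1, the basement membrane protein fibulin 1, read 7.76, 7.63 and 7.88 in the NET47 line and 6.06, 6.14, 5.98 and 5.94 in the NET29 line, at least 2.96-fold higher (adjusted p = 4.19e-14). Untreated cells were at 6.14 ± 0.10 (SD, n = 4), with the NET29 line. MATN2, an adaptor of matrix networks, read 7.63, 7.62 and 7.46 in the NET47 line and 6.35, 6.36, 6.31 and 6.31 in the NET29 line (1.23 ± 0.13). PCOLCE, which enhances procollagen cleavage, was at least 1.45-fold higher. The 3 falls were SPP1, the cytokine-like matrix protein osteopontin (-1.03), SRGN, the proteoglycan of secretory granules (-0.86), and GPC4, a glypican (-0.52).

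Collagens were measured for 22 genes, of which 5 were higher (22.7%, beside 2.33% over all genes), 0 lower, and the median was 0.23. The 5 encode chains of fibrillar, basement membrane and beaded filament collagens. COL5A1 read 7.24, 7.30 and 7.34 in the NET47 line and 6.24, 6.31, 6.45 and 6.57 in the NET29 line (0.90 ± 0.15), COL6A1 differed by 0.76 ± 0.09 and COL6A3 by 0.73 ± 0.17, and the head-to-head pair COL4A1 and COL4A2 of chromosome 13 by 0.79 ± 0.21 and 0.62 ± 0.15. Untreated cells had 7.78 ± 0.46 (SD, n = 4) of COL5A1 and 8.42 ± 0.18 of COL6A1, above both lines. COL6A3 missed the threshold without any NET47 array or without NET29 replicates 2 or 3 (adjusted p 0.0515 to 0.116), with single arrays left out the list had 2 to 5 calls, and under median scaling it had 0. Of 24 proteases and inhibitors only MMP3 was called (4.17%).

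**Figure D3:**
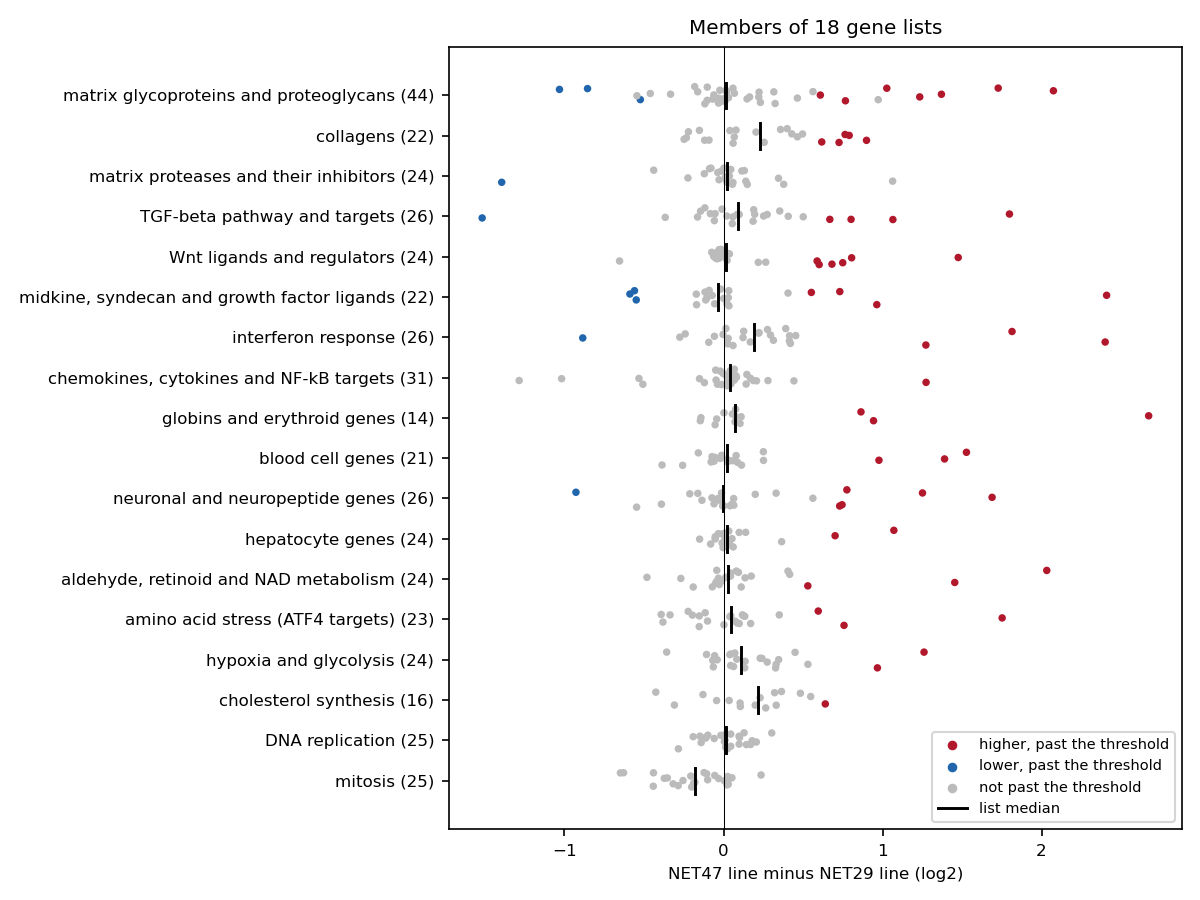
Difference between the lines (NET47 minus NET29, log2) for every measured member of 18 gene lists, with the number of members after each name and black bars at the list medians. Points past the threshold are red (higher) or blue (lower), the matrix, growth factor, interferon, globin and aldehyde lists reach beyond 2, and mitosis and DNA replication have 0 such points.

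In the TGF-beta list, 4 of 26 measured genes were higher and 1 lower (19.2% called, beside 2.33% over all genes, median 0.09). PMEPA1, a TGF-beta target that feeds back on the pathway, read 8.16, 8.61 and 8.70 in the NET47 line and 6.93, 6.73, 6.43 and 6.67 in the NET29 line (1.80 ± 0.24), with untreated cells higher than both at 9.15 ± 0.79 (SD, n = 4). SMAD6, an inhibitory SMAD, was 7.29, 7.71 and 7.29 in the NET47 line and 6.50, 6.28, 6.29 and 6.39 in the NET29 line (1.07 ± 0.13). LTBP3, which stores latent TGF-beta, differed by 0.80, and TGFBR3, the co-receptor betaglycan, by 0.67 ± 0.14, the last missing the threshold without NET47 replicate 1 or 2 (adjusted p = 0.0652 and 0.0767). The single fall was BAMBI, and with single arrays left out the list had 2 to 4 higher calls. PMEPA1, SMAD6 and BAMBI all act against the pathway, and 2 of them rose while 1 fell.

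The Wnt genes that passed were all higher in the NET47 line, with 6 of 24 measured genes higher (25%, beside 2.33% over all genes), 0 lower and a median of 0.01. DKK3, a secreted protein of the Dickkopf family, read 9.42, 9.44 and 9.82 in the NET47 line and 8.01, 8.08, 8.06 and 8.17 in the NET29 line (1.48 ± 0.17, adjusted p = 4.23e-06). SFRP1, a secreted Wnt antagonist, was 8.11, 7.96 and 8.31 in the NET47 line and 7.26, 7.54, 7.29 and 7.18 in the NET29 line (0.81 ± 0.15). The ligands WNT5A, WNT3 and WNT7B differed by 0.75, 0.60 and 0.59, and the receptor FZD2 by 0.68 ± 0.12. The list thus held antagonists, ligands and a receptor among its rises. With single arrays left out it had 4 to 6 higher calls, and in the other processing settings 1 to 6. SFRP1, FZD2 and WNT7B were among the calls lost under median scaling. Growth factor genes were divided: beside MDK, FGFR3 (0.96), GAS6 (0.73), the ligand of the AXL receptor, and PDGFRB were higher, and FGF1, FGF5 and PDGFC were lower (-0.59, -0.55 and -0.56), out of 22 measured genes (31.8% called) with a median of -0.04. FGF1 read 6.49, 6.36 and 6.27 in the NET47 line and 6.89, 6.86, 7.12 and 6.98 in the NET29 line, with untreated cells at 6.34 ± 0.18 (SD, n = 4), while its other 2 probes, not above background on any NET47 array, were not called. PDGFRB, at least 1.32-fold higher, missed the threshold without NET47 replicate 2 or 3 (adjusted p = 0.0696 and 0.0585), and FGF5 fell to a difference of -0.47 without NET47 replicate 2. IGFBP7, which binds insulin and IGFs, was the 1 of 17 IGF genes called (5.88%), with 10.95, 11.33 and 10.86 in the NET47 line and 9.79, 9.42, 9.80 and 9.77 in the NET29 line (1.36 ± 0.16).

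Genes whose usual place is another tissue were also among those that differed. Of 26 neuronal genes 5 were higher and 1 lower (23.1% called, beside 2.33% over all genes). EEF1A2, the translation elongation factor isoform of neurons and muscle, read 10.51, 10.58 and 10.89 in the NET47 line and 8.86, 9.22, 9.02 and 8.78 in the NET29 line (1.69 ± 0.17), and the 4 untreated arrays, from 11.32 to 12.39, were above both lines. SNAP25, a synaptic fusion protein, read 8.01, 8.33 and 7.95 in the NET47 line and 6.97, 7.0, 6.66 and 6.76 in the NET29 line (1.25 ± 0.19). Its other probe, above background on every array of both lines, differed by 0.19 and was not called (adjusted p = 0.580). The calcium-binding CALB2, the granin SCG2 and the growth cone protein GAP43 differed by 0.78, 0.75 and 0.73, and with single arrays left out the list had 3 to 4 higher calls. GABBR2, a subunit of the GABA-B receptor, was lower, with 7.72, 7.75 and 7.99 in the NET47 line and 8.75, 8.73, 8.93 and 8.58 in the NET29 line (-0.93 ± 0.20), and missed the threshold without NET47 replicate 1 or 2 (adjusted p = 0.0598 and 0.0556).

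Among 21 blood cell genes 3 were higher (14.3%, beside 2.33% over all genes), with a median of 0.02. CSF1R, the receptor of macrophage colony-stimulating factor, read 8.41, 8.51 and 8.56 in the NET47 line and 7.10, 7.08, 6.84 and 6.85 in the NET29 line (1.53 ± 0.17). HCLS1, a leukocyte cortactin-like protein, read 10.39, 10.32 and 10.54 in the NET47 line and 8.98, 9.21, 9.09 and 8.82 in the NET29 line (1.39 ± 0.11), and CD3D, a chain of the T cell receptor complex, differed by 0.98 ± 0.12. The summed intensity of the 21 genes ran from 6824 to 8149 on the NET47 arrays and from 7235 to 8293 on the NET29 arrays, so that the sums overlapped. The defining leukocyte genes PTPRC and CD3E were not above background on any array of either line.

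Markers of other cell types were checked in the same way. Of 14 epithelial markers 1 was higher (7.14%), the keratin KRT8, with 9.11, 9.29 and 9.45 in the NET47 line and 8.52, 8.44, 8.52 and 8.40 in the NET29 line (0.81 ± 0.21, adjusted p = 0.0458), and it missed the threshold whichever array was left out (adjusted p 0.0683 to 0.267). The summed intensity of the 14 epithelial genes was 4786 to 5680 on the NET47 arrays and 3912 to 4556 on the NET29 arrays, which did not overlap, and 4535 to 7592 on the untreated arrays. Among them 5 were above background on any of the 7 arrays, and EPCAM and CDH1 were not. The part of this difference in other results was not tested. Of 17 mesenchymal markers 2 were higher (11.8%), among them S100A4, a calcium-binding protein of motile cells, with 7.24, 7.11 and 7.71 in the NET47 line and 6.17, 6.57, 6.35 and 6.24 in the NET29 line (1.02 ± 0.19). The mesenchymal sums overlapped, at 39820 to 43090 on the NET47 arrays and 40250 to 41570 on the NET29 arrays. Of 25 adhesion genes 1 was called (4%), the mesenchymal cadherin CDH11, with 8.70, 8.66 and 8.77 in the NET47 line and 7.80, 7.81, 7.34 and 7.69 in the NET29 line (1.05 ± 0.18).

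Liver and fat genes were looked at because the 2 proteins belong to those tissues. Of 24 hepatocyte genes 2 were higher in the NET47 line (8.33%, beside 2.33% over all genes), FOXA2, a pioneer factor of liver development, with 8.02, 7.92 and 8.32 in the NET47 line and 6.94, 7.37, 6.93 and 6.81 in the NET29 line (1.07 ± 0.17), and APOE, a lipoprotein, at least 1.39-fold higher. Untreated cells were at 7.59 ± 0.46 (SD, n = 4) for FOXA2, between the lines. Against them FOXA2 passed only in the NET29 line, which was lower (-0.57). The other FOXA2 probes were not above background on any array of either line. APOE missed the threshold without NET47 replicate 3 (adjusted p = 0.0741). The median of the list was 0.02, and 9 of the 24 genes were above background on any of the 7 arrays. Its summed intensity was 1837 to 2019 on the NET47 arrays and 1696 to 1726 on the NET29 arrays. On the untreated arrays it was 1743 to 1907, which overlapped the NET47 arrays. None of 21 adipocyte genes passed, with a median of -0.03 and sums of 6746 to 7958 on the NET47 arrays and 7043 to 9064 on the NET29 arrays. Of 10 liver genes that the study named as raised by NET47, 7 were higher in the NET47 line (70%, beside 2.33% over all genes, median 0.72). They included FBLN1, MATN2, PCOLCE, TGFBR3, HSPB8, a small heat shock protein (0.96 ± 0.10), ARRB1, beta-arrestin (0.94), and NDRG2 (0.50). That list was chosen on these NET47 arrays against control cells, untreated ones among them. It is not independent evidence of direction or of the place of the untreated level. In all 7 the untreated mean was nearer to the NET29 line than to the NET47 line, which that choice favours.

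The metabolic lists gave from 1 to 3 calls each, with shares of 4.17% to 13.3% beside 2.33% over all genes. The shares of 4.17% and 6.25% are a single gene each, and with single arrays left out these lists had 0 to 1 higher calls. The 2.33% also counts genes never above background, since 12129 of 18665 were above it on any of the 7 arrays. Shares near it are therefore not read as a result about a list. TM7SF2 belongs to cholesterol synthesis, and of the other 16 measured genes of that pathway 1 was higher (6.25%), the phosphomevalonate kinase PMVK (0.64 ± 0.15), which missed the threshold without NET47 replicates 2 or 3 or without NET29 replicates 1 or 4 (adjusted p 0.0716 to 0.183). The median of the pathway was 0.21. Fatty acid synthesis had 1 of 24 (4.17%), FASN (0.67 ± 0.17), which held only when NET29 replicate 2 was the array left out (adjusted p 0.0539 to 0.24 for the other 6). Of 24 genes of aldehyde, retinoid and NAD metabolism 3 were higher (12.5%), QPRT, ALDH2 and CRABP2. ALDH2, which clears acetaldehyde, held whichever array was left out, with 8.33, 8.11 and 8.51 in the NET47 line and 6.80, 6.96, 6.95 and 6.73 in the NET29 line (1.45 ± 0.13). CRABP2, which carries retinoic acid, differed by 0.53 ± 0.12 and missed the threshold without NET47 replicate 3 or without NET29 replicate 4 or 1 (adjusted p 0.0585 to 0.176). MAOA and AKR1C3 were the calls among 15 genes of monoamine and steroid metabolism (13.3%). MAOA, which degrades monoamines, read 10.54, 10.15 and 10.64 in the NET47 line and 8.88, 9.19, 8.86 and 8.81 in the NET29 line (1.51 ± 0.13), with untreated cells at 8.68 ± 0.30 (SD, n = 4), at the NET29 level. AKR1C3, a reductase of steroids and prostaglandins, was lower (-0.96 ± 0.19).

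Of 23 targets of the amino acid stress factor ATF4, 3 were higher (13%, beside 2.33% over all genes): DDIT4, an inhibitor of mTORC1 (1.75 ± 0.36), the arginine transporter SLC7A1 (0.76 ± 0.13) and the secreted glycoprotein STC2 (0.60 ± 0.10). DDIT4 read 9.89, 9.88 and 10.31 in the NET47 line and 8.48, 8.26, 7.84 and 8.50 in the NET29 line, and had an adjusted p of 0.0543 without NET47 replicate 3. DDIT4, SLC7A1 and STC2 all missed the threshold under median scaling. Of 24 hypoxia and glycolysis genes 2 were higher (8.33%), the aldolase ALDOC (1.26 ± 0.31) and PFKFB4 (0.97 ± 0.21), both lost without NET47 replicate 2 or 3 (adjusted p 0.0625 to 0.232), and ALDOC held only when NET29 replicate 2 was the array left out. DUSP4, a phosphatase that shuts off ERK, was the 1 call of 20 ERK feedback genes (1.10 ± 0.22) and missed the threshold without NET47 replicate 3 (adjusted p = 0.0591). DNAJB9, a chaperone of the endoplasmic reticulum, was the 1 call of 18 genes of the unfolded protein response (-0.57 ± 0.15), and missed it without NET47 replicate 2 or 3 or NET29 replicate 1, 3 or 4 (adjusted p 0.0614 to 0.419). No member passed among 25 mitosis genes, 25 DNA replication genes, 20 p53 targets, 26 genes of the lamina and inner nuclear membrane and 23 heterochromatin factors, lists in which a share of 2.33% is less than 1 gene each. The mitosis genes had the lowest median of these lists, -0.18, with single genes between -0.65 and 0.24.

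Chromosome 13 held more called genes for its size than any other chromosome. Of its 366 measured genes 35 were higher in the NET47 line and 1 was lower (9.84%, beside 2.33% over all genes). Among the 182 of its genes that were above background on all 7 arrays, the median difference was 0.30, and 162 (89%) were above 0, whereas the 9210 such genes placed on all chromosomes were above 0 in 50.3% of cases. The shift was thus small and spread over most of the chromosome. It ran from the block of 30 neighbouring genes that starts at BAGE5 (median 0.30) to the last, from ZIC2 to RASA3 (0.35), and 5 of the 6 full blocks of the chromosome were above 0.2, as were 3 others in the genome out of 296 blocks. In the other direction 9 blocks were below -0.2, the lowest from SERP1 to MECOM on chromosome 3 (-0.30), and none of them was on chromosome 13.

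By array, the median level of these 182 genes relative to the untreated mean was 0.26, 0.29 and 0.02 in the NET47 line. It was -0.08, -0.20, -0.15 and -0.04 in the NET29 line. The 4 arrays of the NET39 line, outside this comparison, ran from -0.24 to -0.08. Untreated arrays themselves were at 0.21, -0.10, 0.13 and -0.24, the lowest being replicate 4. The NET47 and NET29 lines thus lay on either side of the untreated mean but within or close to the range of its arrays. NET47 replicate 3, the array that stood apart, was the lowest of its group, although still above all 4 NET29 arrays. The number of higher genes on the chromosome was 28 to 33 with single arrays left out, and under median scaling it was 0, where the median difference of the 182 genes was still 0.24. DNA copy number was not measured, and its part in the shift was not tested.

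Single genes of chromosome 13 spanned many functions. TSC22D1, a transcription factor induced by TGF-beta, had the largest rise, with 11.74 ± 0.10 in the NET47 line and 10.18 ± 0.08 in the NET29 line (SD, n = 3 and 4). EBPL, a relative of the sterol isomerase EBP, averaged 11.65 ± 0.03 in the NET47 line and 10.74 ± 0.23 in the NET29 line, EFNB2, the ligand ephrin B2, 10.44 ± 0.15 and 9.59 ± 0.09, and GTF3A, which starts transcription of small ribosomal RNA genes, 12.11 ± 0.02 and 11.29 ± 0.08. ITM2B, a membrane protein, averaged 11.95 ± 0.05 in the NET47 line and 11.24 ± 0.27 in the NET29 line. The 1 fall was GJB2, the gap junction protein of the connexin family, with 7.39 ± 0.05 in the NET47 line and 8.25 ± 0.17 in the NET29 line. Chromosome 5, the other chromosome whose position the study followed, had 7 higher and 7 lower genes of 846 (1.65%), a share below that of all genes. Among its 411 genes above background on all 7 arrays the median difference was -0.07. Of these 38.9% were above 0, beside 50.3% over all chromosomes. Its block from TMEM167A to WDR36 had a median of -0.28, with no gene past the threshold.

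**Figure D4:**
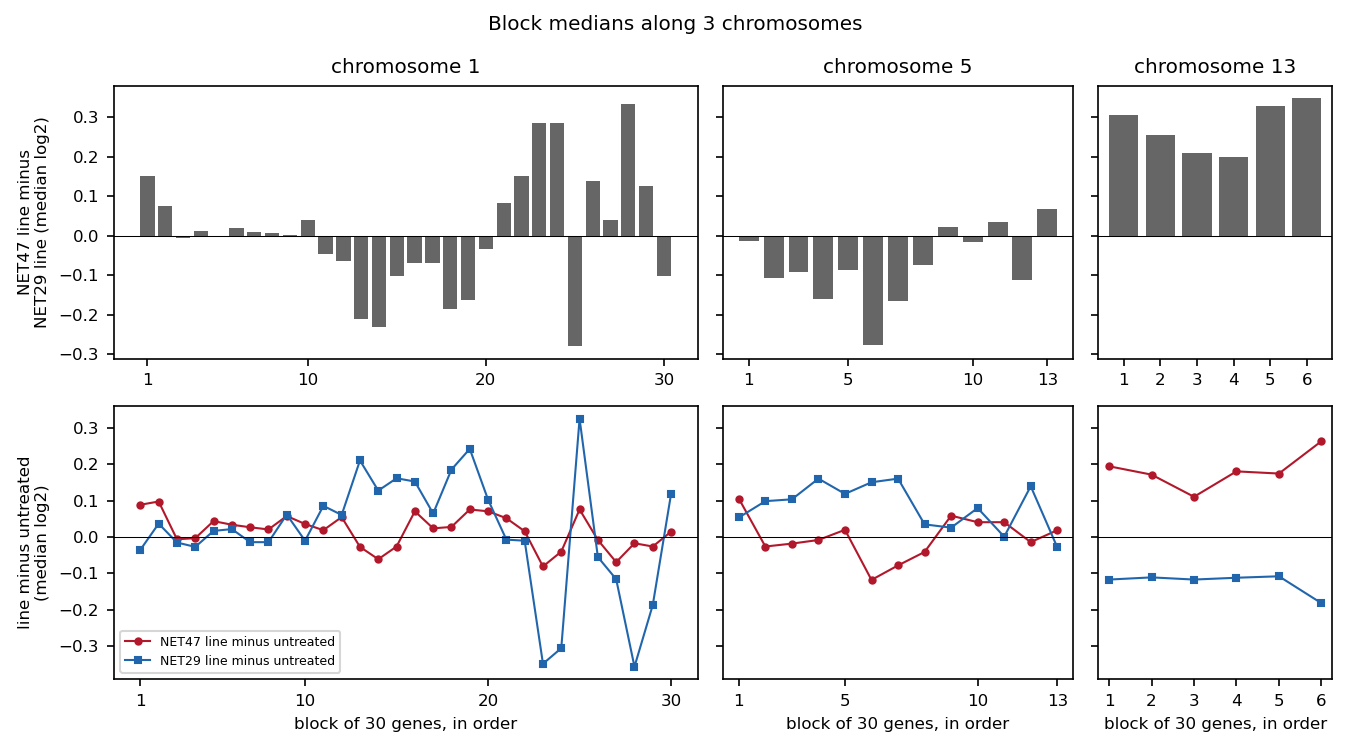
Median log2 difference for successive blocks of 30 genes above background along chromosomes 1, 5 and 13, as NET47 line minus NET29 line (bars, upper row) and as each line minus untreated cells (NET47 red circles, NET29 blue squares, lower row). All 6 blocks of chromosome 13 are above 0 with the lines on opposite sides of untreated, while the 3 blocks above 0.2 on chromosome 1 have low values of the NET29 line.

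Chromosome 1 had 77 higher and 12 lower genes of 1856 (4.8%), and its largest block medians lay in a few stretches of its far part. In the 60 genes above background from SUMO1P3 to TOR1AIP1 the median was 0.29, and 17 genes were higher and 1 lower. In the 30 genes from NSL1 to SRP9 the median was 0.33, with 6 higher and 1 lower. Between them, the 30 genes from CEP350 to DDX59 had a median of -0.28, with 0 higher and 3 lower. The first and second of these stretches held 17 and 6 of the 68 higher calls among the chromosome's genes above background, so that most lay elsewhere on it. Relative to the untreated mean these stretches stood at -0.07, -0.02 and 0.08 in the NET47 line and at -0.33, -0.36 and 0.33 in the NET29 line. On the 4 NET29 arrays the first stretch ran from -0.38 to -0.30, and on the 3 NET47 arrays from -0.06 to -0.03, with untreated arrays between -0.06 and 0.05. The 4 arrays of the NET39 line, outside this comparison, ran from -0.37 to -0.32 in the first stretch. They ran from -0.38 to -0.29 between NSL1 and SRP9, and from 0.105 to 0.381 between CEP350 and DDX59. Such values were thus not particular to the NET29 line. Outside chromosomes 1 and 13, 310 of 16443 genes were called (1.89%), 206 higher and 104 lower.

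Some called genes were neighbours. Of the 435, 54 lay in runs, and there were 24 runs of at least 2 adjacent measured genes past the threshold in 1 direction and 5 runs of at least 3, holding 16. On chromosome 1 these were SHC1, CKS1B and FLAD1 (0.73, 0.76 and 0.80), an adaptor of receptor tyrosine kinases, a subunit of cyclin-dependent kinase complexes and the enzyme that makes FAD, then DEDD, UFC1 and USP21 (0.87, 0.63 and 0.83), and IKBKE, RASSF5 and EIF2D (0.81, 0.72 and 0.58). CKS1B missed the threshold without NET47 replicate 2 (adjusted p = 0.0539), UFC1 held only without NET29 replicate 2 (adjusted p 0.0571 to 0.123 for the other 6), and EIF2D missed it without NET47 replicates 1 or 3 or without NET29 replicate 4 (adjusted p 0.0538 to 0.132). On the X chromosome the run was NUDT11, GSPT2 and MAGED1. NUDT11, a phosphohydrolase of inositol phosphates, read 7.77, 7.91 and 7.76 in the NET47 line and 6.30, 6.36, 6.30 and 6.30 in the NET29 line (1.50 ± 0.09), and MAGED1, an adaptor of neurotrophin receptor signalling, differed by 0.95 ± 0.13. GSPT2, a translation termination factor between them, differed by 0.52, and by 0.48 and 0.46 without NET47 replicate 1 or NET29 replicate 3, under the limit of 0.5. The run at the globins was the longest, with 4 genes. Coordinates are not given because the build of the arrays' annotation was not stated, and the order of genes was taken from the RefSeq annotation.

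The series also held the soluble nucleoplasmic fragment of each protein, without the membrane anchor (3 arrays each). The sample protocol describes transient transfection for the fragments, whereas a legend of the study speaks of stable expression. The difference between the NET47 fragment and the NET29 fragment was compared with that between the lines, and these 4 groups share no array. Between the fragments 625 genes passed (3.35%), and 104 genes passed in both comparisons, which is 23.9% of the line genes and 16.6% of the fragment genes. Of the 104, 44 differed in the same direction and 60 in opposite directions. The interaction, the line difference minus the fragment difference, passed for 866 genes (4.64%), among them 255 of the 435. Since the line difference is a part of the interaction, genes called between the lines pass it more readily, and that count is no separate evidence. If the fragments were transient, the mode of expression differed along with the anchor, and the effects of the 2 cannot be told apart.

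The interaction was looked at gene by gene for the 5 largest rises and the 5 largest falls, which include TM7SF2 and TMEM120A. Of these 10, 8 passed, a share largely built in by choosing genes on the line difference. HBE1 averaged 7.81 ± 0.15 with the NET47 fragment and 10.44 ± 0.12 with the NET29 fragment (SD, n = 3 each), a difference of -2.63, against 2.67 between the lines, and the interaction was 5.30 ± 0.24 (adjusted p = 1.79e-13). MDK was also opposite in sign, with -0.83 between fragments and an interaction of 3.24 ± 0.19. For IFI27 the fragment difference of -1.03 did not pass (adjusted p = 0.158), and the interaction was 3.43 ± 0.51. ARMCX2 differed by 0.24 between fragments, where it stood at 10.65 ± 0.13 and 10.41 ± 0.13, and its interaction was 3.12 ± 0.15. Among the falls, BAMBI, ADTRP and TMEM120A had interactions of -1.87, -1.64 and -1.38, and that of ESM1 (-0.58, adjusted p = 0.697) did not pass. ESM1 was lower with the NET47 fragment too, at 8.77 ± 0.37 against 10.33 ± 0.12 with the NET29 fragment (-1.57, adjusted p = 0.0141). TM7SF2 and TMEM120A did not differ past the threshold between fragments (0.05 and -0.10), and whether their probes lie within the fragments was not determined.

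**Figure D5:**
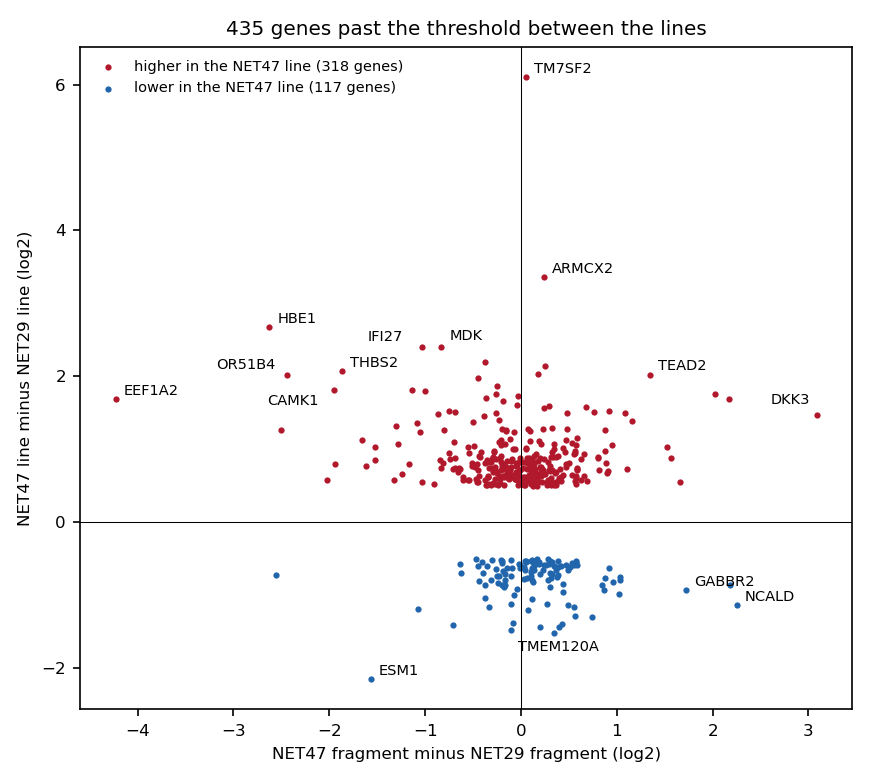
Difference between the lines (NET47 minus NET29, log2) against the difference between the soluble fragments (NET47 minus NET29, log2) for the 435 genes past the threshold between the lines. HBE1, OR51B4 and EEF1A2 lie far to the left although high in the NET47 line, DKK3 and TEAD2 lie to the right, and TM7SF2 sits near 0 on the fragment axis.

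Other named genes differed between the fragments in either direction. OR51B4, beside HBE1, differed by -2.44 between fragments and had an interaction of 4.46 ± 0.17 (adjusted p = 1.37e-14), and EEF1A2 differed by -4.23 with an interaction of 5.92 ± 0.25. CAMK1 and THBS2 were opposite to the lines as well, with -1.95 and -1.87 between fragments and interactions of 3.76 ± 0.20 and 3.94 ± 0.28. DKK3 and TEAD2 differed in the same direction as between the lines. DKK3 differed by 3.09 between fragments, more than between the lines, with an interaction of -1.61 ± 0.25 (adjusted p = 0.000224), while TEAD2 differed by 1.35 with an interaction of 0.68 ± 0.20 that did not pass (adjusted p = 0.0628). QPRT, FBLN1 and MATN2, whose level in the NET47 line stood above both NET29 and untreated cells, differed by 0.18, -0.03 and -0.07 between fragments and did not pass there. Their interactions of 1.85, 1.75 and 1.31 passed. On chromosome 13 the 182 genes had a median difference of 0.19 between fragments, in the same direction as between the lines, and 13 of its 366 genes were higher and 3 lower with the NET47 fragment. The 3 NET47 fragment arrays were at 0.15, 0.11 and 0.07 relative to the untreated mean, and the NET29 fragment arrays were all at -0.11.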

How the data were processed

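Gene expression was measured in HT1080 cells on Illumina HT bead arrays, 27 in 8 groups. The authors deposited 2 tables: bead intensities per probe, neither normalised nor background subtracted, and log2 values that the authors had quantile normalised with limma (version not given). The intensity table was used, and the log2 table served as an alternative. Groups were taken from the titles of the arrays. Intensities were background corrected by normexp (offset 50), quantile normalised and log2 transformed in limma 3.58.1 under R 4.3.3. All 27 arrays entered 1 linear model with a mean per group, which left 19 degrees of freedom. Each difference was tested in it by the two-sided moderated t of limma, the source of every adjusted p. P-values were adjusted by Benjamini-Hochberg over 48803 probes, and a probe passed with an adjusted p under 0.05 and a log2 difference beyond 0.5.

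Of the probes, 27577 had 1 gene symbol, 13 several and 21213 none in the platform annotation, and 18665 genes were represented by the probe that was brightest on average. The background level of an array was the 95th percentile of 620 probes of olfactory and taste receptor, keratin-associated protein and defensin genes. No detection p-values were used, and the number of arrays limits the precision. The genes named are TM7SF2, TMEM120A, TMEM120B and PLPP7, the 15 largest rises and 15 largest falls that passed without overlap of arrays and above background in all arrays of 1 line, at most 4 genes, by smallest p, of each list with a call, and runs of at least 3 neighbouring called genes. Of these, 1 called gene is not reported here, and list members that did not pass are mostly given within counts. Other list members, genes of chromosome 13 and genes that did not pass were named after their values were seen. The members and the gene lists were chosen with earlier results of these data known. Scripts were tested on simulated data. Alternatives covered normalisation, background correction, filtering, probe choice, array weights, a replicate block and leaving out each array. Gene order and promoter windows came from RefSeq, build GRCh38.p14.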

Additional observations from a re-analysis of the deposited data

Results flagged for a closer look

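For 8 of the 10 genes tested, the difference between the NET47 and NET29 lines differed from that between the soluble fragments by the interaction term of the limma fit, given here with its adjusted p. Those genes were picked for large differences between the lines, which are part of the interaction, so that a high share was built in. Over all genes 4.64% passed. The interaction was 6.05 for TM7SF2 (adjusted p = 9.69e-19), 5.30 for HBE1 (1.79e-13), 3.43 for IFI27 (0.000186), 3.24 for MDK (3.37e-11) and 3.12 for ARMCX2 (7.35e-13). It was -1.87 for BAMBI (0.00164), -1.64 for ADTRP (0.000477) and -1.38 for TMEM120A (4.83e-05).

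In 11 of 128 groups of 4 arrays, 1 array stood apart from the rest of its group by Dixon's criterion, where chance gives about 1 in 20. In the NET29 line replicate 2 was the highest array for NUDT11 (6.36), IKBKE (6.74), FLAD1 (8.40) and EFR3B (8.90), and the lowest for IGFBP7 (9.42) and ESM1 (9.22). Replicate 3 was the lowest for PFKFB4 (8.73) and STC2 (9.09), and replicate 1 for CAMK1 (6.04). In untreated cells replicate 4 was the highest for MAGEC2 (8.92) and replicate 2 for TMEM120B (6.99).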

How the results depend on the processing

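Between the NET47 and NET29 lines, 435 genes passed (318 higher and 117 lower). Scaling arrays to a common median in place of quantile normalisation left 158 (117 higher and 41 lower), of which 155 were among the 435 in the same direction, and the cause was not tested. The other settings gave 318 (no background correction) to 608 (normexp offset 16), and the authors' log2 table gave 463. Leaving out single arrays gave 318 to 450 genes, 227 to 335 higher and 91 to 125 lower, and 601 to 888 for the interaction. Averaging the most alike pair, NET29 replicates 1 and 4, an alternative chosen after seeing the data, gave 359. Of 94 named genes past the threshold, 69 held with every single array left out and 45 in all settings. Median scaling alone took 42 of the 94 below the threshold. The difference of TMEM120B, 0.05 and not called, was -0.009 without NET29 replicate 1 and 0.119 without NET29 replicate 2. Among these called genes 35 had several probes, and for 32 of them another probe was above background on some array of the lines. For 18 of the 32 at least 1 such probe was not called, and no other probe was called in the opposite direction. Precision is limited by 3 and 4 arrays, and for dim genes by signal near background.

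Equal replicate numbers did not pair the arrays, since deviations of same-numbered arrays correlated at 0.483, -0.742 and 0.253. Differently numbered arrays correlated at -0.637 to 0.736, the highest being NET47 replicate 3 with NET29 replicate 2. A structure shared between arrays of other numbers is not captured by the replicate block and was not tested. With the replicate block 425 genes passed (305 higher and 120 lower), 403 of them among the 435 in the same direction.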
